A study of Danio rerio with 2 samples.

Results

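The lyz-rich barcodes with mcm transcripts are cell barcodes of a droplet library of sorted zebrafish neutrophils in which lyz, the gene of the granule enzyme lysozyme C, made up at least 5% of the UMIs (unique molecular identifiers, each counting 1 captured transcript). They were chosen by a rule that also asked for at least 3 summed UMIs of mcm2, mcm3, mcm5 and mcm6, for fewer than 3 UMIs of mki67, top2a, cdk1 and rrm2, and for fewer than 4 UMIs of cdc20, ccnb1, aspm, cenpf and kif11. The rule found 1103 such barcodes, here called mcm barcodes, among the 16899 sorted barcodes with at least 500 features and under 10% mitochondrial UMIs, a share of 6.53% (6.16 to 6.91%). The 2 libraries of the series held 28534 barcodes in all. Because expression itself chose the barcodes, every value of the genes in the rule is a description of that choice, and the levels of all other genes in the same cells are described without a test as well.

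The MCM proteins form the ring-shaped helicase that is loaded onto replication origins in G1, with the help of the origin recognition complex, Cdc6 and Cdt1, and that unwinds DNA once S phase begins. Neutrophil precursors in the marrow divide while they fill their first granules, and later stages leave the cell cycle and make the products of late granules, such as the gelatinase Mmp9. In zebrafish this takes place in the kidney marrow, where lyz marks the neutrophil lineage.

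Both libraries came from the kidney marrow of the same 2 male fish, aged 6 months, which carried Tg(lysC:CFP-NTR) and Tg(BACmmp9:Citrine-CAAX), so that the lysC promoter drove a CFP fusion and an mmp9 artificial chromosome drove membrane-bound Citrine. The sorted library pooled live LysC+ cells taken at 3 levels of Mmp9 reporter fluorescence (NO, INT and HI), and the second library held whole kidney marrow (WKM) gated on live cells. Cells were not assigned to a fish or to a sort gate here, and each library is therefore 1 sample. With 1 library per condition no test between groups was possible, and the 95% intervals given here cover counting error only.

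The sorted library contained 17846 barcodes with 58772890 UMIs and the WKM library 10688 barcodes with 45939863 UMIs. The mcm barcodes together held 8142324 UMIs, with a median of 6901 per barcode (1023 to 21879) over a median of 1639 features. Depth differed strongly between the groups compared: the 15796 other sorted barcodes that passed the limits had a median of 2241 UMIs. A total of 62 barcode sequences occurred in both libraries, 3 of them in mcm barcodes. The doublet caller Scrublet marked 162 mcm barcodes (14.7%), against 9.59% of the lyz-rich barcodes without mcm and 11.5% of all sorted barcodes that passed the limits. Here and below, without mcm means fewer than 3 summed UMIs of mcm2, mcm3, mcm5 and mcm6, and not none. Of those lyz-rich barcodes, which were inside the limits on cycle genes, 67.3% had no such UMI.

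The label of neutrophils was read against marker genes that the rule did not use. Levels were summed over the mcm barcodes and given as counts per 1000000 UMIs (CPM). The gene srgn, which encodes the granule proteoglycan serglycin, reached 13766 CPM. The astacin-like metalloprotease npsn reached 8619 CPM and mpx, the myeloid peroxidase, 2883 CPM. In the lyz-rich barcodes inside the limits on cycle genes with no mcm2, mcm3, mcm5 or mcm6 UMI, npsn was at 8731 CPM and mpx at 2847 CPM. The late granule gene mmp9 was low instead. After thinning every barcode to 1000 UMIs, it was seen in 11.2% of mcm barcodes and 37.8% of the other sorted barcodes. None of the defining genes csf1ra, marco and mpeg1.1 (macrophages), pax5 and cd79b (B cells), zap70 and cd4-1 (T cells), gata1a and alas2 (erythroid cells) or itga2b and mpl (thrombocytes) had any UMI in these barcodes, where 3 UMIs correspond to 0.368 CPM. Over the whole marker lists, 4 of 6 monocyte or macrophage genes and 4 of 5 B cell genes were at 0, and the lists summed to 1.35 CPM and 0.123 CPM in mcm barcodes. The 4 thrombocyte genes were all at 0. The 5 genes of T or NK cells summed to 26.2 CPM, which came almost wholly from runx3 (25.4 CPM), and those of haematopoietic progenitors to 54.2 CPM, mainly from fli1a (47.7 CPM). In the lyz-rich barcodes without mcm these lists summed to 34.2 CPM and 74.9 CPM. Globin transcripts, a common form of free RNA in droplets, summed to 22.2 CPM in mcm barcodes, against 67.2 CPM in the lyz-rich barcodes without mcm.

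The lyz share in cells that should lack lyz was read from WKM barcodes with at least 20% globin UMIs, which stand for red blood cells. In these 925 barcodes lyz had a median of 0.0253% of UMIs and a 99th percentile of 8.02%, and 27 of them (2.92%, 1.93 to 4.22%) reached the 5% limit. These values hold for the WKM library, include any droplets with both a red cell and a neutrophil, and do not give the free lyz RNA of the sorted library. In sorted mcm barcodes the lyz share had a median of 9.90% and ran between 5.02 and 19.7%.

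Among the 6098 lyz-rich barcodes that passed the limits, the mcm barcodes made up 18.1% (17.1 to 19.1%), the cycling barcodes, which were past a limit on mki67 and its companions or on cdc20 and its companions, made up 19.4% (18.4 to 20.4%), and the remaining 3815 had fewer than 3 mcm UMIs and were not cycling. Here and below, cycling and non-cycling name only the side of these limits on raw UMIs of cycle genes. Non-cycling barcodes, the mcm barcodes among them, may hold cells that are in the cell cycle. Of all 1364 non-cycling sorted barcodes with at least 3 mcm UMIs, 80.9% (78.7 to 82.9%) were lyz-rich, against 36.1% of all sorted barcodes that passed the limits. The 36.1% is not a like reference, since it includes cycling barcodes, 1180 of them lyz-rich and 279 with lower lyz. The mcm limit is on raw UMIs and depth differed with lyz. Non-cycling barcodes with fewer than 3 mcm UMIs had a median of 3331 UMIs when lyz-rich and 1903 UMIs otherwise. The part of depth in this share was not tested. The mcm barcodes had a median of 6 mcm UMIs and at most 37. Of the genes that chose them, mcm2 was at 269 CPM, mcm3 at 228 CPM, mcm5 at 292 CPM and mcm6 at 236 CPM. Together these genes reached 1025 CPM, against 112 CPM in the non-cycling lyz-rich barcodes without mcm. Most mcm barcodes lay well inside the limits on cycle genes: 893 had no UMI of mki67, top2a, cdk1 or rrm2, and 1059 had none of cdc20, ccnb1, aspm, cenpf or kif11. These were 81.0% and 96.0% of them. The shares were 79.6% and 87.5% in the lyz-rich barcodes without mcm and 81.3% and 88.8% in all other sorted barcodes, at lower median depth.

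High mcm counts occurred on both sides of the cycle limits. The share of lyz-rich barcodes with at least 3 mcm UMIs was 22.7% (21.4 to 24.1%) in the 3932 barcodes with no UMI of mki67, top2a, cdk1 and rrm2. It was 43.0% (36.6 to 49.6%) in the 237 barcodes with 3 to 5 of these UMIs and 12.9% (8.58 to 18.3%) in the 202 barcodes with over 20. The median depth of these groups was 4469.5, 5693 and 10990.5 UMIs in the same order.

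**Figure D1:**
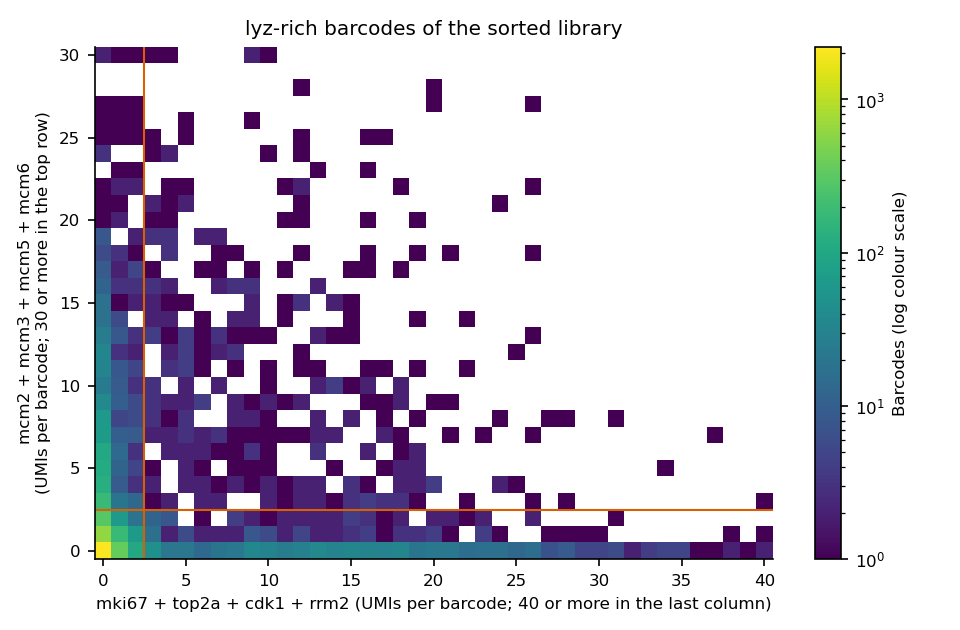
Number of lyz-rich sorted barcodes (colour, log scale) by summed UMIs of mcm2, mcm3, mcm5 and mcm6 (vertical axis) and of mki67, top2a, cdk1 and rrm2 (horizontal axis), with lines at the limits of 3 UMIs. The mcm barcodes stand in the upper left field, and 893 of the 1103 stand in the first column with no UMI of the cycle genes.

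The first question was how the mcm barcodes differ from the lyz-rich barcodes with fewer than 3 mcm UMIs inside the limits on cycle genes. These are here called mcm-poor barcodes (n = 3815). The genes cdc20, ccnb1, aspm, cenpf and kif11 summed to 39.5 CPM in mcm-poor barcodes and 6.63 CPM in mcm barcodes. The sums of mki67, top2a, cdk1 and rrm2 were 65.8 CPM and 35.2 CPM. Shallow barcodes of dividing cells may thus be among the mcm-poor barcodes, which was not tested. The mcm barcodes carried most of the known replication machinery at 2-fold to 10-fold higher levels than the mcm-poor barcodes, together with factors of chromatin assembly and nucleotide supply. Ribosome biogenesis genes were higher by less, and 4 of 18 were at least 2-fold higher at matched depth. Summed levels of the linker histones and of hmgn2 were lower in mcm barcodes, while genes of neutrophil granules differed little. Of the 8471 genes with at least 50 UMIs over both groups, 385 were at least 2-fold higher (4.54% of the genes) and 189 at least 2-fold lower (2.23%), and the median log2 ratio over all of them was -0.02.

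Of the 53 listed genes of the replication machinery, 4 belong to the rule, 3 had no entry under their symbol, and 43 of the other 46 passed the minimum of 50 UMIs. All 43 had a ratio above 0 and 39 were at least 2-fold higher, against 4.54% of all genes, with a median log2 ratio of 2.02. The minimum can be met through the group with the higher level alone, so this count describes the genes that passed it. The mcm limit separates the groups by construction. Higher levels of genes that vary with mcm may follow from that choice, and its part was not tested. Without the barcodes marked as doublets the median was 2.02 as well.

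The helicase subunit outside the rule with ample counts, mcm4 (ENSDARG00000040041), had 228 CPM (218 to 239) in mcm barcodes and 55.6 CPM in mcm-poor barcodes, a log2 ratio of 2.04 (1.92 to 2.16). The remaining subunit, mcm7, was sparse, with 7.0 CPM against 0.962 CPM. Both subunits were thus higher together with those that the rule used. Among the origin licensing genes, all 9 that were counted were at least 2-fold higher (median 2.13). The origin recognition subunit orc6 stood highest of all genes outside the rule with at least 200 UMIs, at 25.4 CPM in mcm barcodes against 2.54 CPM in mcm-poor barcodes (log2 ratio 3.32, 2.81 to 3.87). The loader genes cdc6 and cdt1 had log2 ratios of 2.00 and 2.09, and gmnn, whose product geminin blocks reloading in S and G2, had 2.13 (1.70 to 2.58).

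Components that act at the fork showed the same direction. Of 10 counted genes of the CMG helicase and fork protection, 9 were at least 2-fold higher (median 2.03). The GINS subunit gins2 had 50.6 CPM in mcm barcodes and 8.80 CPM in mcm-poor barcodes, a log2 ratio of 2.52 (2.23 to 2.82), and timeless, a fork protection factor, had the lowest ratio of this list at 0.64. Of 22 genes of polymerases, primase, clamp and Okazaki fragment processing, 19 were at least 2-fold higher (median 1.98). The sliding clamp pcna (ENSDARG00000054155) was at 619 CPM (602 to 636) in mcm barcodes and 154 CPM in mcm-poor barcodes (log2 ratio 2.01, 1.93 to 2.08). The flap endonuclease fen1 was at 155 CPM in mcm barcodes and 32.4 CPM in mcm-poor barcodes, and the primase-linked subunit pola2 at 19.2 CPM and 2.82 CPM in the same order.

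All 13 genes that assemble or mark new chromatin were at least 2-fold higher (median 2.05). The remodelling helicase hells (ENSDARG00000057738) had 78.8 CPM in mcm barcodes against 8.11 CPM in mcm-poor barcodes, a log2 ratio of 3.28 (3.0 to 3.58). Its activator cdca7a had a log2 ratio of 2.80 (2.51 to 3.1), and uhrf1, which brings the maintenance methylase to replicated DNA, had 2.97 (2.59 to 3.37). The histone chaperone subunit chaf1a was at 90.4 CPM in mcm barcodes and 17.3 CPM in mcm-poor barcodes. Of 13 genes of nucleotide supply, 10 were at least 2-fold higher (median 1.34), among them the large ribonucleotide reductase subunit rrm1 (110 CPM against 26.8 CPM) and the thymidylate synthase tyms (41.0 CPM against 7.15 CPM). The other genes among the 12 with the highest ratios were the clamp-associated factor pclaf (log2 ratio 2.59), the mismatch repair gene msh6 (2.44), the checkpoint kinase chek2 (2.42), the coactivator pprc1 (2.46), the ATPase atad2 (2.72) and the unnamed gene si:ch211-156b7.4 (2.93).

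**Figure D2:**
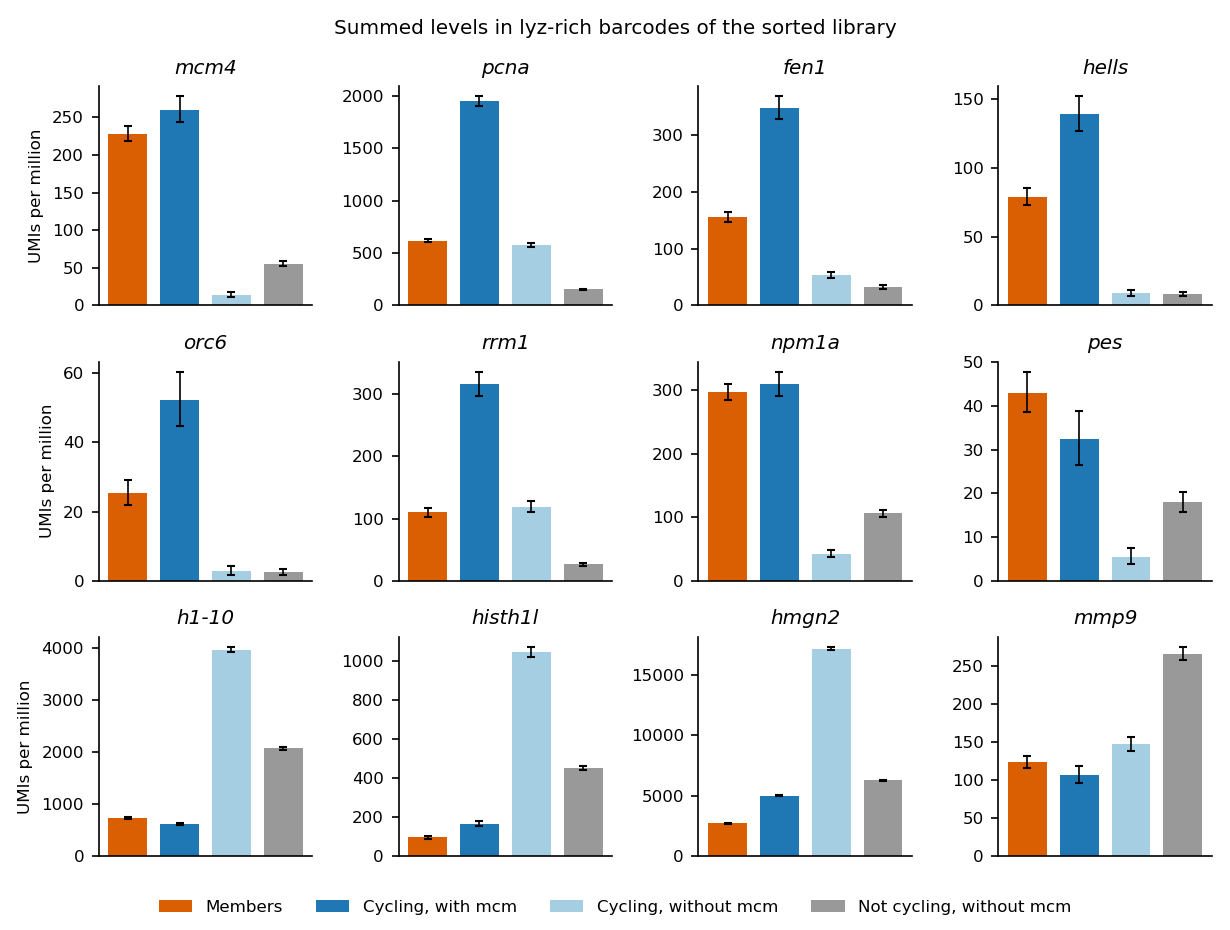
Levels of 12 genes in CPM, summed over the mcm barcodes (members), the cycling lyz-rich barcodes with and without mcm, and the mcm-poor barcodes inside the limits on cycle genes, with exact Poisson intervals of 95%. Hells reached 78.8 CPM in mcm barcodes and 8.11 CPM in mcm-poor barcodes, while h1-10 was at 734 CPM and 2073 CPM.

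Genes that govern the entry into S phase were higher in part. Of 14 counted G1/S genes, 8 were at least 2-fold higher (median 1.16), against 4.54% of all genes. At matched depth, described below, 5 of 10 were so (median 0.93), against 4.01% of all genes. The cyclin ccnd1 had 26.4 CPM in mcm barcodes and 7.63 CPM in mcm-poor barcodes (log2 ratio 1.79, 1.45 to 2.13), and ccne1 and its partner cdk2 had log2 ratios of 1.77 and 1.44. The more abundant ccnd2a was nearly level, at 145 CPM in mcm barcodes against 132 CPM in mcm-poor barcodes. The inhibitor cdkn1bb, one of the zebrafish genes for p27, stood at 53.4 CPM in mcm barcodes and 95.6 CPM in mcm-poor barcodes, a log2 ratio of -0.84 (-1.0 to -0.68).

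Ribosome biogenesis was the other list that stood high as a whole. All 20 genes had a ratio above 0 and 11 were at least 2-fold higher (median 1.09), against 4 of 18 at matched depth, where 15 were above 0. The nucleolar chaperone npm1a had 297 CPM in mcm barcodes and 106 CPM in mcm-poor barcodes (log2 ratio 1.48, 1.39 to 1.58), and dkc1, the pseudouridine synthase of small nucleolar RNPs, had 122 CPM and 36.4 CPM. The growth regulator myca, one of the zebrafish myc genes, was at 60.4 CPM in mcm barcodes and 27.4 CPM in mcm-poor barcodes, whereas mych had 99 CPM and 106 CPM. At matched depth the log2 ratio of myca was 0.23 (-0.09 to 0.56).

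Of the 12 genes with the lowest ratios over mcm-poor barcodes, several encode mitotic proteins or histones. The linker histone gene histh1l had 98.5 CPM in mcm barcodes and 454 CPM in mcm-poor barcodes, a log2 ratio of -2.21 (-2.31 to -2.1). A second linker histone, h1-10 (ENSDARG00000054058), was at 734 CPM in mcm barcodes and 2073 CPM in mcm-poor barcodes (-1.5, -1.54 to -1.46). The nucleosome-binding gene hmgn2 had 2727 CPM and 6277 CPM (-1.20, -1.22 to -1.18). The metallothionein mt2 (-1.87), ptgdsb.1 (-1.68), zgc:110425 (-1.83), mibp (-2.26), si:dkey-108k21.10 (-1.69), zgc:173552 (2.95 CPM against 15.1 CPM) and a further gene known only by a clone name (-1.64) completed that set with the ubiquitin ligase partner ube2c (-2.79), the spindle gene nusap1 (-1.89), si:ch211-69g19.2 (-2.80) and the globin hbba1 (-1.64). Genes of G2 and mitosis outside the rule had a median log2 ratio of -1.43, with 19 of 28 at least 2-fold lower and mybl2b (1.19) at least 2-fold higher. The limits on the cycle genes bear on these values in both groups. At matched depth, described next, nusap1 turned sign. Of the erythroid list, with hbba1 in it, 5 genes were counted at all depths (median -1.57). At matched depth 2 were counted, with a median of -0.06.

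The mcm rule uses raw UMIs, and mcm barcodes had a median of 6901 UMIs against 3331 in mcm-poor barcodes. The comparison was therefore repeated between the 552 mcm barcodes and the 757 mcm-poor barcodes whose totals lay within the interquartile range of the mcm barcodes (5435.5 to 9189 UMIs). There, 34 of 37 counted replication genes were at least 2-fold higher (median 2.60), against 4.01% of 6486 genes. The mcm limit separates the groups at matched depth too, and the minimum can again be met through the higher group alone. This repeat is therefore no independent support. At matched depth the log2 ratio was 2.47 for mcm4, 2.70 for pcna and 4.02 for hells, and it was -2.58 for histh1l, -1.65 for h1-10 and -1.20 for hmgn2. Of the G2 and mitosis list 6 genes still passed the minimum, with a median of 1.20 and 3 at least 2-fold higher, and this median is not over the same genes as the one at all depths. Among the 6, the mitotic kinase gene aurkb had 2.20 at matched depth and 0.59 at all depths, cks1b 1.72 and 0.38, and kpna2 1.78 and -0.31. Ribosome biogenesis had a median of 0.75, with 4 of 18 at least 2-fold higher and 15 above 0. The ratio of mmp9, which was at 124 CPM in mcm barcodes and 266 CPM in mcm-poor barcodes over all depths (-1.10, -1.20 to -1.0), was -0.03 (-0.21 to 0.15) there.

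**Figure D3:**
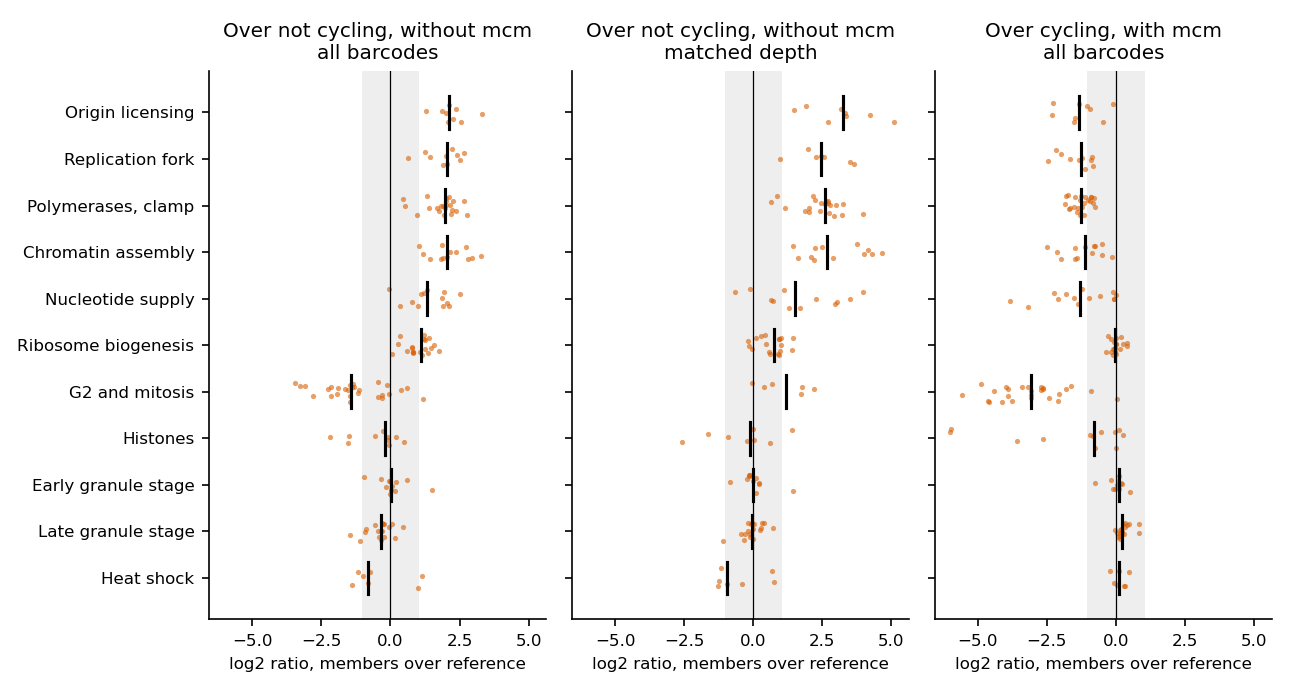
Log2 ratios of mcm barcodes over mcm-poor barcodes at all depths (left) and at matched depth (middle), and over cycling barcodes with mcm (right), with 1 point per gene and a bar at the median of each list; the grey band spans 2-fold either way. The medians of the replication lists lie right of the band in the first 2 panels (the list medians include licensing at 2.13 and 3.24) and left of 0 in the third, and the G2 and mitosis list holds 28 genes in the first panel and 6 in the second.

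For mcm4, pcna and h1-10 the shares of barcodes with a UMI gave the same order when every barcode was thinned to 1000 UMIs. After thinning, mcm4 was seen in 21.6% (19.2 to 24.1%) of mcm barcodes and 6.17% (5.42 to 6.98%) of mcm-poor barcodes, of which 21 were too shallow, and without thinning in 74.1% and 17.1%. The thinned share for pcna was 42.2% in mcm barcodes and 16.7% in mcm-poor barcodes, while that for h1-10 was 38.5% and 72.2%. For hmgn2 the thinned shares were close, at 84.7% (82.4 to 86.8%) in mcm barcodes and 86.8% (85.7 to 87.9%) in mcm-poor barcodes. A further reference was the 1982 sorted barcodes with at least 3 mmp9 UMIs and under 1% lyz, which stand for mature neutrophils (median 2166 UMIs). In these, mcm4 was seen in 2.78% and pcna in 9.97% at 1000 UMIs, below both lyz-rich groups. The share for h1-10 was 31.7% in these mature barcodes, also below both, so a low h1-10 share was not particular to mcm barcodes. These shares hold free RNA and any transcripts of the cells themselves, so they do not give the level of free RNA alone.

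Granule and effector genes differed little between mcm barcodes and mcm-poor barcodes. The lists of early and late stage genes contain genes that the study chose on these libraries and are no independent evidence of a direction. Of 12 counted early stage genes, 1 was at least 2-fold higher, the redox gene selenoh (64.8 CPM in mcm barcodes, 22.7 CPM in mcm-poor barcodes), and the median was 0.00. Of 18 late stage genes, 2 were at least 2-fold lower, mmp9 and the chemokine receptor cxcr1 (8.47 CPM against 23.2 CPM), and the median was -0.34. The share over all genes was 2.23%. At matched depth 1 of 18 late stage genes was at least 2-fold lower (median -0.06), against 1.14% of all genes. The peroxidase mpx had 2883 CPM in mcm barcodes and 2803 CPM in mcm-poor barcodes, and lect2l, a chemotactic factor gene, had 53660 CPM and 55614 CPM.

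The heat shock genes of the hsp70 family summed to 270 CPM (259 to 282) in mcm barcodes and 609 CPM (596 to 622) in mcm-poor barcodes. The log2 ratio of hsp70l, -1.40 over all depths, was -1.23 at matched depth. The mitochondrial chaperone hspd1, in contrast, was at 71.2 CPM in mcm barcodes and 32.5 CPM in mcm-poor barcodes over all depths. At matched depth 0 of the 7 counted heat shock genes, hspd1 among them, were at least 2-fold higher, and 3 were at least 2-fold lower.

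The reporter transcript CFPNTR was at 140 CPM (132 to 148) in mcm barcodes and 107 CPM in mcm-poor barcodes, with a log2 ratio of 0.38 (0.27 to 0.49). In the 10261 non-cycling sorted barcodes with lower lyz and fewer than 3 mcm UMIs it was at 28.2 CPM. Citrine gave 8 UMIs in mcm barcodes (0.983 CPM) and was at 1.1 CPM in mcm-poor barcodes and 9.18 CPM in those low-lyz barcodes, where mmp9 had 1225 CPM. Transcripts of the mmp9 reporter were therefore scarce in mcm barcodes, but the sort gate of each barcode was not determined.

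A further question was how the mcm barcodes compare with the 1180 cycling lyz-rich barcodes, which had a median of 8299 UMIs and a lyz share of 9.62%. Of 8277 counted genes, 218 were at least 2-fold higher in mcm barcodes (2.63%) and 496 at least 2-fold lower (5.99%), with a median log2 ratio of 0.04. The limits on cycle genes separate these groups by construction, and all 35 counted genes of G2 and mitosis outside the rule were at least 2-fold lower (median -5.54). Replication genes outside the rule had a median of -0.42, with 1 of 45 at least 2-fold higher and 5 at least 2-fold lower. The feature table has 2 entries named rrm2, both used in the rule. With the first entry alone the limit on cycle genes was looser, 466 genes instead of 218 were at least 2-fold higher, and the ratio of pcna over cycling barcodes was 0.23 instead of -0.75.

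Genes of ribosome assembly led the genes that were higher than in cycling barcodes. All 20 ribosome biogenesis genes had ratios above 0 (median 0.90) and 9 were at least 2-fold higher, against 2.63% of all genes. The highest ratio belonged to pes, a factor of the large ribosomal subunit, with 43.0 CPM in mcm barcodes and 14.6 CPM in cycling barcodes (log2 ratio 1.56, 1.28 to 1.85). It was followed by tsr2 (1.54), the RNA polymerase I subunit twistnb (1.52), bms1 (1.49), esf1 (1.48), the histone chaperone nap1l4a (1.46), pprc1 (1.41) and rrs1 (1.41). At the other end stood the kinetochore gene knl1 and the unnamed si:dkey-108k21.14, both without a UMI in mcm barcodes. The histone genes hist1h2a11 and hist1h2a3, the spindle gene fam83d and si:ch1073-153i20.5 had 1 UMI each in mcm barcodes, zgc:153405 had 2 UMIs, and zgc:173552 was at 2.95 CPM in mcm barcodes and 752 CPM in cycling barcodes.

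Captured transcripts of core histones were lower in mcm barcodes than in cycling barcodes. The 24 entries named hist1h4l, near-identical copies between which reads may be split, summed to 94.6 CPM (88.0 to 101) in mcm barcodes, 2389 CPM in cycling barcodes and 164 CPM in mcm-poor barcodes. Within the cycling barcodes they summed to 790 CPM in those with at least 3 mcm UMIs and 3216 CPM in those with fewer. Most of the contrast with the cycling barcodes thus came from those with few mcm UMIs. The H2A variant gene h2ax had 46.8 CPM in mcm barcodes and 428 CPM in cycling barcodes. The capture primes on poly(A), which most core histone transcripts lack, so these are levels of the captured fraction.

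The cycling barcodes were of 2 kinds with regard to mcm, 357 with at least 3 mcm UMIs and 823 with fewer, with median depths of 8794 and 8005 UMIs, and the comparison with the first kind was chosen after these values had been seen. Of 7307 genes, 76 were at least 2-fold higher in mcm barcodes than in the cycling barcodes with mcm (1.04%) and 350 at least 2-fold lower (4.79%). The ratio of mcm4 was -0.19 (-0.30 to -0.07), with 228 CPM in mcm barcodes and 260 CPM in cycling barcodes with mcm. The limits on cycle genes separate these groups too by construction, with a median of 0 UMIs of mki67, top2a, cdk1 and rrm2 against 9. Lower levels of genes that vary with these cycle genes may follow from that choice, and its part was not tested. All 44 counted replication genes outside the rule had ratios below 0, and 30 were at least 2-fold lower (median -1.25). Thus pcna was at 619 CPM in mcm barcodes and 1944 CPM in cycling barcodes with mcm, dut, the dUTPase that keeps uracil out of DNA, at 46.5 CPM and 427 CPM, and tyms at 41.0 CPM and 176 CPM.

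The ribosome biogenesis genes did not follow the replication genes in this comparison. None of 19 was 2-fold higher or lower (median -0.02), and npm1a was at 297 CPM in mcm barcodes and 309 CPM in cycling barcodes with mcm. Besides mcm4, the ratios closest to 0 among the replication genes belonged to the licensing genes cdt1 (-0.12, -0.62 to 0.40) and orc1 (-0.47), while cdc6 (-2.29) and mcm10 (-2.33), which acts when the helicase is switched on, were among the lowest. The activator cdca7a had -0.14 (-0.37 to 0.10). Linker histone h1-10 was at 734 CPM in mcm barcodes, 620 CPM in cycling barcodes with mcm and 3959 CPM in cycling barcodes without mcm. Both groups with mcm were thus low among these 3, but the h1-10 share was low in mature neutrophils too. Late stage genes had a median of 0.21, with 17 of 18 above 0, beside a median of 0.03 over all genes. Of these 18 genes, 0 were at least 2-fold higher or lower. At matched depth 34 of 41 counted replication genes were at least 2-fold lower (median -1.49), against 4.95% of 5274 genes. There 11 of 17 late stage genes had ratios above 0 (median 0.12, beside 0.02 over all genes).

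Against all 15796 other sorted barcodes, which include later stages with little lyz, 370 of 10149 genes were at least 2-fold higher in mcm barcodes (3.65%) and 1188 at least 2-fold lower (11.7%). The median log2 ratio over all genes was -0.20 here, and -0.06 when groups were scaled by the median of ratios. Replication genes outside the rule had a median of 0.96, with 21 of 45 at least 2-fold higher, and ribosome biogenesis 1.26, with 14 of 20. The other sorted barcodes had a median of 2241 UMIs, and at matched depth 8 of 44 replication genes (median 0.56) and 9 of 18 ribosome biogenesis genes (median 0.95) were at least 2-fold higher, against 1.74% of 7813 genes. Of the late stage genes, 6 of 18 were at least 2-fold lower (median -0.79), and 2 of 18 at matched depth (median -0.26), against 4.81% of all genes there. Over all depths mmp9 was at 124 CPM in mcm barcodes against 1225 CPM in low-lyz barcodes without mcm. Globins summed to 22.2 CPM in mcm barcodes and 311 CPM in the other sorted barcodes. They summed to 6190 CPM in the 279 cycling barcodes with lower lyz that are among these others.

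Within the mcm barcodes, replication genes outside the rule differed with the mcm count. The 212 barcodes with 3 mcm UMIs, just inside the limit, had 1331 CPM of summed replication genes, and levels were 1627 CPM at 4 to 5 mcm UMIs (n = 271), 2261 CPM at 6 to 9 (n = 337) and 3284 CPM at 10 or more (n = 283). Just outside the limit, the 377 barcodes with 2 mcm UMIs had 1094 CPM, and those with 1 and with 0 had 813 CPM and 478 CPM. No step stood out at the limit. Median totals ran from 5670.5 UMIs at 3 mcm UMIs to 8925 at 10 or more, and the part of depth in this order was not tested.

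Across the same bins h1-10 was at 1010 CPM with 3 mcm UMIs, 970 CPM with 4 to 5, 634 CPM with 6 to 9 and 538 CPM with 10 or more. The inhibitor cdkn1bb ran the same way, at 75.9, 59.9, 56.2 and 35.9 CPM in these bins, and ccnd1 the other way, at 15.5, 19.2, 25.7 and 37.1 CPM. Barcodes rich in mcm thus carried more ccnd1 and less cdkn1bb and h1-10 than those at the limit, as a description over bins that share 1 library.

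The lyz share divided the mcm barcodes along other genes. From the 250 barcodes with 5 to 7.5% lyz through those with 7.5 to 10% (n = 320) and 10 to 12.5% (n = 271) to those above 12.5% (n = 262), replication genes summed to 2688, 2513, 2109 and 2070 CPM. The complement factor cfd was at 784, 1242, 1826 and 2362 CPM in these bins, mmp9 at 233, 175, 88.1 and 39.8 CPM, and cebpb, a transcription factor of the C/EBP family, at 3064, 2273, 1772 and 1246 CPM. Barcodes with most lyz had most cfd and least mmp9 and cebpb in this order. Their median totals were 5082.5, 6349.5, 7542 and 8637 UMIs in these bins, and the part of depth was not tested. At the lyz limit, the 53 barcodes with 5 to 5.5% lyz had 2801 CPM of replication genes, and the 51 just outside, with 4.5 to 5% lyz and the same mcm and cycle limits, had 3053 CPM. In these 2 small groups summed cfd was at 557 CPM just inside and 1489 CPM just outside, against the order of the bins. Thinned to 1000 UMIs, cfd was seen in 54.4% of mcm barcodes. It was seen in 13.03% of the 261 barcodes under 5% lyz with the same mcm and cycle limits. The shares over the whole range below the limit thus went with the order, and the sums at the limit did not.

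Over all non-cycling sorted barcodes thinned to 1000 UMIs, the share with any UMI of mcm2, mcm3, mcm5 or mcm6 was 1.83% below 1% lyz, 7.34% at 2 to 3%, 20.6% at 4 to 5%, 23.0% at 5 to 7.5%, 28.5% at 7.5 to 10% and 28.3% above 12.5%. For mcm4, which the rule did not use, the shares were 3.37, 3.97, 7.61, 9.23, 9.42 and 9.75% in these bins. The order continued below the 5% limit, so this limit did not mark a boundary in mcm transcripts.

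**Figure D4:**
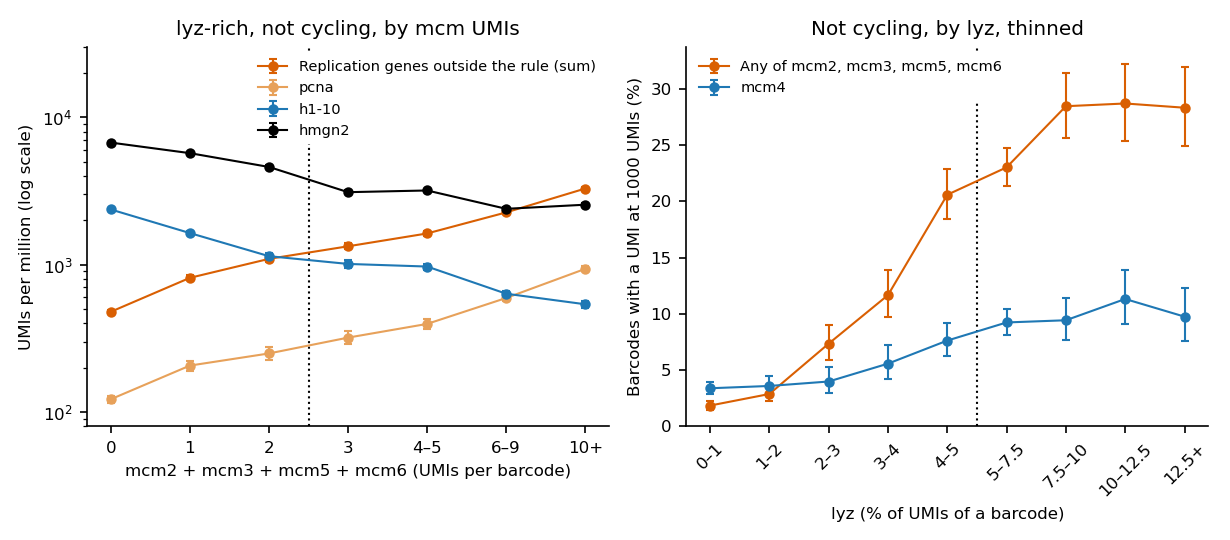
Left, levels in CPM (log axis) over non-cycling lyz-rich barcodes by their mcm UMIs; right, share of non-cycling sorted barcodes with a UMI after thinning to 1000 UMIs, by lyz share; bars are 95% counting intervals and dotted lines the limits of the rule. Replication genes stood at 1331 CPM with 3 mcm UMIs and 3284 CPM with 10 or more, and the share with mcm4 was 9.23% at 5 to 7.5% lyz.

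The WKM library, made from the same fish without a reporter gate, was read with the same rule. It held 364 barcodes that met the rule among 1976 lyz-rich ones, 18.4% (16.7 to 20.2%), beside 18.1% in the sorted library. These barcodes were selected on mcm too, so their genes are a second description in a library that did not define the group. They had a median of 6322.5 UMIs, against 4082.5 UMIs in the 1216 mcm-poor WKM barcodes. The mcm-poor barcodes of the sorted library had a median of 3331 UMIs, and the part of depth in the 2 shares was not tested. Over the mcm-poor WKM barcodes, 285 of 5982 genes were at least 2-fold higher (4.76%) and 106 at least 2-fold lower (1.77%).

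Of the 5937 genes counted in both libraries, 194 were at least 2-fold higher in the sorted library and 278 in WKM, and 157 were so in both, 80.9% of the sorted and 56.5% of the WKM list. The lists of genes at least 2-fold lower shared 27, which was 36.0% of 75 in the sorted library and 28.7% of 94 in WKM. Of all 5982 genes counted in WKM, 4.76% were at least 2-fold higher there and 1.77% at least 2-fold lower. The same mcm rule picked the barcodes in both libraries, so a shared list is in part a result of that rule. All 33 replication genes counted in both had ratios above 0 in both, and 29 were at least 2-fold higher in both (medians 2.01 and 2.30). In WKM, mcm4 had 247 CPM in barcodes that met the rule and 43.5 CPM in mcm-poor barcodes, pcna 634 CPM and 114 CPM, and hells 85.0 CPM and 5.35 CPM. The linker histone h1-10 was at 653 CPM and 2004 CPM, and hmgn2 at 2246 CPM and 4959 CPM.

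Other genes separated the libraries. In WKM the hsp70 family summed to 2.71 CPM in barcodes that met the rule and 19.4 CPM in mcm-poor barcodes, against 270 CPM in sorted mcm barcodes. There mmp9 was at 20.9 CPM in barcodes that met the rule and 19.0 CPM in mcm-poor barcodes. Globins summed to 22526 CPM in WKM barcodes that met the rule, against 22.2 CPM in sorted mcm barcodes. The 6 monocyte or macrophage genes, c1qb and cd74a among them, summed to 85.0 CPM in WKM barcodes that met the rule and 33.0 CPM in mcm-poor WKM barcodes, and their part in the WKM ratios was not tested.

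**Figure D5:**
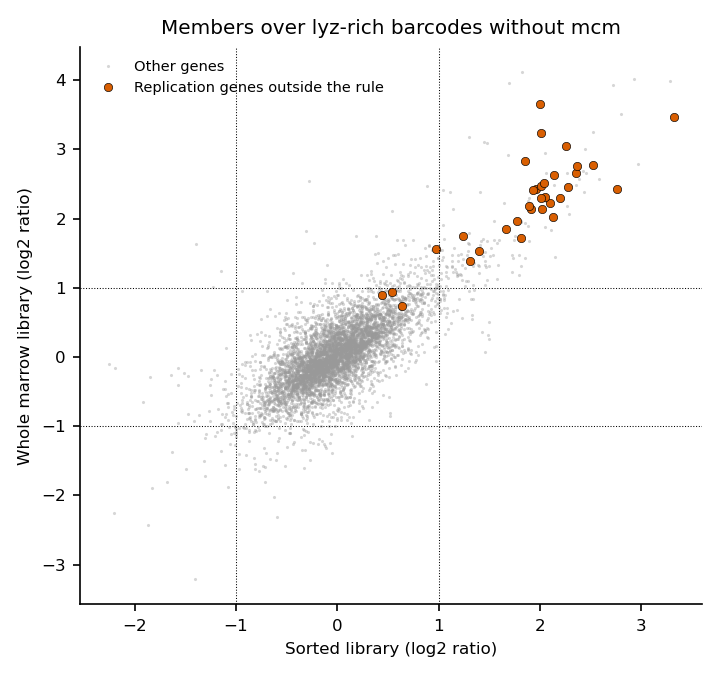
Log2 ratios of barcodes that met the rule over mcm-poor barcodes in the sorted library (horizontal) and the WKM library (vertical), for 5937 genes counted in both, with replication genes outside the rule marked. All 33 marked genes lie above 0 on both axes, where the mcm rule split both libraries, and dotted lines show 2-fold.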

How the data were processed

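Cells of the kidney marrow were labelled with lipid barcodes (MULTI-seq, 2 µM), pooled and captured in droplets (10x Genomics 3' chemistry). The authors aligned the reads with Cell Ranger 3.1.0 to the GRCz11 transcriptome with Citrine and CFPNTR added, and deposited the UMI counts per gene and barcode; the labels also name Seurat 4.0.2. These raw counts were used as deposited, and no lipid barcodes were used here to assign cells to fish or gates.

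Barcodes with at least 500 features and under 10% mitochondrial UMIs were kept, and the rule given in the results was applied to raw counts, with both entries named rrm2. Counts were summed per group and gene and divided by the group's total to give CPM. Log2 ratios were calculated without a pseudocount for genes with at least 50 counts over both groups, with 95% intervals from the exact binomial split. Levels carry exact Poisson and shares exact Clopper-Pearson intervals. Totals ranged from 1023 to 21879 UMIs per barcode in the group, so a gene with 3 UMIs in the group is at 0.368 CPM. A difference of 2-fold or more was counted as a difference. Shares of barcodes were also computed after thinning each barcode to 1000 UMIs. Doublets were marked, not removed, with Scrublet (scanpy 1.11.5, expected rate 10%).

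The members and the gene lists were chosen with earlier results of these data known, and the comparison with cycling barcodes that carry mcm was added after seeing the data. Besides the lists, the text names the 12 highest and 12 lowest ratios over lyz-rich barcodes without mcm and the 8 highest and 8 lowest over cycling ones, among genes with at least 200 counts and outside the rule. Alternatives varied the limits of the rule, the depth, the doublets, the scaling and the count minimum. Calculations were done in Python 3.11.15 with numpy 2.4.6, scipy 1.17.1 and pandas 2.3.3. No genome sequence or coordinates were used, and the sort labels of single cells were not used here.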

Additional observations from a re-analysis of the deposited data

Results flagged for a closer look

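Some genes had log2 ratios of opposite sign in the sorted library and in WKM, with both counting intervals apart from 0. The difference between the libraries was not tested. Over the mcm-poor barcodes, the nuclear import gene kpna2 had -0.31 in the sorted library and 1.83 in WKM, and the spindle checkpoint gene mad2l1 had -1.54 and 2.16. At matched depth in the sorted library these genes had 1.78 and 0.82. The chromatin gene hmgb2a had -0.17 in the sorted library and 0.29 in WKM, and the histone variant h2az2b -0.082 and 0.11. Among immune genes, the cytokine il1b had -0.24 in the sorted library and 0.57 in WKM, the kinase lyn (the more abundant of 2 entries) -0.22 and 0.50, the NADPH oxidase subunit ncf1 -0.065 and 0.24, and the transporter abcc13 0.21 and -0.33. Over the cycling barcodes, srgn had 0.018 in the sorted library and -0.050 in WKM.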

How the results depend on the processing

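The median log2 ratio of replication genes over mcm-poor barcodes lay between 1.96 and 2.60 under every alternative run, against 2.02 as reported. It was 2.43 with a lyz limit of 8%, 2.60 at the interquartile depth of the mcm barcodes and 2.42 with the first rrm2 entry only. Of 61 genes followed over 14 alternatives, 644 log2 ratios stayed within the counting interval, 197 moved outside it and 13 turned sign. Each group is 1 library, so no replicate could be left out and errors between fish are unknown.

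The share of sorted barcodes that met the rule (6.53%) was 8.76% with an mcm limit of 2 and 4.44% with 5, 7.5% with a lyz limit of 3% and 4.73% with 8%, 9.22% among barcodes with at least 800 features, and 7.79% with the first rrm2 entry only. The share of lyz-rich WKM barcodes (18.4%) was 23.6% and 11.8% with mcm limits of 2 and 5, and 15.3% and 21.3% with lyz limits of 3% and 8%.

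Genes at least 2-fold lower than in mcm-poor barcodes (189) numbered 119 with an mcm limit of 2, 294 and 56 with lyz limits of 3% and 8%, 74 at matched depth, 351 with at least 20 counts and 67 with at least 200, where 161 instead of 385 were higher. Over the other sorted barcodes, 136 genes were higher and 376 lower at matched depth, 227 were higher with at least 200 counts and 567 with the first rrm2 entry only. Over cycling barcodes, 350 genes were higher with at least 20 counts and 466 with the first rrm2 entry only, and 79 were higher and 287 lower with at least 200 counts. Over cycling barcodes with mcm, 45 were higher with an mcm limit of 5, 204 with at least 20 counts and 242 with the first rrm2 entry only, and 5 were higher and 151 lower with at least 200 counts.

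Among the genes followed, signs turned over mcm-poor barcodes for mmp9 (0.14 with a lyz limit of 8%), for h2az2b (0.016 with an mcm limit of 5, 0.081 with the first rrm2 entry only), and at matched depth for cfd (-0.16), lect2l (0.21), cebpb (0.19) and nusap1 (0.034). Outside the genes followed, kpna2 (1.78) and mad2l1 (0.82, on few counts) also turned at matched depth. Over cycling barcodes they turned for mpx (0.037 with a lyz limit of 8%, 0.018 at matched depth) and, with the first rrm2 entry only, for pcna (0.23), cdc6 (0.71), rrm1 (0.090) and tyms (0.32). The rrm2 alternative and the one without shared barcodes were chosen after seeing the data; otherwise the cause was not tested. No paired analysis was possible because barcodes were not assigned to fish here.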
